A study of Mus musculus with 20 samples.

Results

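In mouse embryonic stem cells of the wild-type line E14, 1293 genomic regions carried a peak of the Polycomb protein Suz12 in every list from cells with blocked transcription, but in only some of the lists from untreated cells. They were chosen from 11943 regions, made by merging the peaks of 8 Suz12 lists wherever these overlapped by at least 1 bp. A chosen region was called in each of the 4 treated lists and also in 1, 2 or 3 of the 4 untreated lists. By this rule 307 regions had 1 untreated call, 404 had 2 and 582 had 3. For comparison, 1065 regions were called in the 4 treated lists alone, with no untreated call, and 4281 had a peak in all 8 lists. The peak calls of treated and untreated libraries chose the regions, so the difference between treated and untreated counts at them is a description and carries no test.

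The libraries came from cells that were wild type, of strain E14-WT, cultured in serum with LIF on gelatin and precipitated with an antibody to Suz12. Each of 4 groups had 2 libraries: DRB at 100 µM for 12 h, triptolide at 10 µM for 9 h, DRB at 0 h and triptolide at 0 h. The 0 h groups are called untreated here. DRB inhibits the kinase that lets RNA polymerase II pass into elongation, whereas triptolide acts on the TFIIH helicase at initiation. The design calls the replicates biological, but separate cultures are stated nowhere, so p-values measure only the spread between these libraries. The other 12 samples of the series were not analysed here.

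Suz12 belongs to the core of Polycomb repressive complex 2 (PRC2), the enzyme complex that methylates lysine 27 of histone H3. In embryonic stem cells PRC2 is best known at CpG islands, stretches of promoter DNA rich in the dinucleotide CpG, above all at silent genes for developmental regulators. Most CpG islands of active genes have little PRC2. By their calls, the regions described here lie between those with a peak in every list and those with a peak in the treated lists only.

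The sequences below show what the start sites at these regions look like, for the 3 regions at gene ends with the largest and the 3 with the most negative change. Each is the RefSeq promoter of GRCm38.p6, from 250 bases before to 50 bases after a start site, written 5′ to 3′ on the gene's strand. Capitals mark each CpG. Mesd is shown at chr7:83883616-83883915 (plus strand), Fscn1 at chr5:142960105-142960404 (plus strand) and Tsc22d1 at chr14:76415571-76415870 (plus strand).
Mesd: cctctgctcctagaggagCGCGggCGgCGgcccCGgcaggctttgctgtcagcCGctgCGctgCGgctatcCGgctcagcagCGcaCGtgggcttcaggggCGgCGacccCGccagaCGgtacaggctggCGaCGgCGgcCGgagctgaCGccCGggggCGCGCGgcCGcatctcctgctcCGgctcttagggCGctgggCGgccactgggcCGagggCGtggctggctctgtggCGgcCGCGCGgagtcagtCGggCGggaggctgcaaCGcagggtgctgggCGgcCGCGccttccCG
Fscn1: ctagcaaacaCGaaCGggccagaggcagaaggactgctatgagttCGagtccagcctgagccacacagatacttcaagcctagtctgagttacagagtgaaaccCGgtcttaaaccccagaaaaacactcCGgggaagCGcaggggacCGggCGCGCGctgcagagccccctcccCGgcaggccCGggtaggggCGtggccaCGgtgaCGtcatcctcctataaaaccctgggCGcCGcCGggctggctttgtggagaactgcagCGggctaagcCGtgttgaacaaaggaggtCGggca
Tsc22d1: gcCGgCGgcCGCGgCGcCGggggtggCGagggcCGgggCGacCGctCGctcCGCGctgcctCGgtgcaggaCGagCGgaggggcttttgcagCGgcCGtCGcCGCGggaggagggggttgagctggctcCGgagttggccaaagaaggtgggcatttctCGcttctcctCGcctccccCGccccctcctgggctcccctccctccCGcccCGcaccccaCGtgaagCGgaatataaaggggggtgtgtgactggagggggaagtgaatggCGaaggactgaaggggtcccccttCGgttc

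These 3 promoters, at regions where treated counts were far above untreated counts, held 41, 21 and 31 CpG. The 3 that follow come from regions where treated counts were below untreated counts. They are Nipal4 at chr11:46166310-46166609, Fbln5 at chr12:101819070-101819369 and Sdc4 at chr2:164443139-164443438, all on the minus strand.
Nipal4: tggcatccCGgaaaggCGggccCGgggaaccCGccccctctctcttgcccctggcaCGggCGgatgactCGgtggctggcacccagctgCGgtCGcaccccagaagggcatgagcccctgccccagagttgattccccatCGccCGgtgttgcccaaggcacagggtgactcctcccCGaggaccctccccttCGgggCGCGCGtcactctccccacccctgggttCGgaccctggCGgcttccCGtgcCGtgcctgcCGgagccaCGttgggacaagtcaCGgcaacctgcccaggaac
Fbln5: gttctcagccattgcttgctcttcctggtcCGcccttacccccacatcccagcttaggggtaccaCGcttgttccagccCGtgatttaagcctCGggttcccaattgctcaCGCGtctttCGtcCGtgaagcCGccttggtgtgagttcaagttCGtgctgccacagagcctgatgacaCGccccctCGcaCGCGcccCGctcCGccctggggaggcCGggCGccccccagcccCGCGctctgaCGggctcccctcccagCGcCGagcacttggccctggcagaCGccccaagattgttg
Sdc4: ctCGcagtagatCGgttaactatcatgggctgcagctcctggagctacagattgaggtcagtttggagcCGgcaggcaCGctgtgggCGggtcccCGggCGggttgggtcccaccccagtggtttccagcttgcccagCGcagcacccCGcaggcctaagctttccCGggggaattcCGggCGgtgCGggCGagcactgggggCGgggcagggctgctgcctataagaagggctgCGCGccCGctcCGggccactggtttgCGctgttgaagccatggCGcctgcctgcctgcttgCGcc

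They held 23, 24 and 22 CpG. All 6 were therefore CpG-rich beside the median of 7 CpG over all 32851 promoters of the table.

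The number of untreated calls followed the list from which they came. The 2 untreated replicate 2 lists called most of the regions, with 1066 (82.4%) in the DRB list and 1109 (85.8%) in the triptolide list. The replicate 1 lists called far fewer, with 407 (31.5%) for DRB and 279 (21.6%) for triptolide. These lists also differ in length, with 6886 and 6728 peaks for replicate 2 of DRB and triptolide against 5795 and 5116 for replicate 1. A peak in both replicate 2 lists and in neither replicate 1 list was the most frequent pattern, at 338 regions. Of the 307 regions with a single untreated call, 160 had it in triptolide replicate 2, 122 in DRB replicate 2, 22 in DRB replicate 1 and 3 in triptolide replicate 1. With every list held to the 5116 peaks of the shortest, 397 regions met the rule. Peaks were ranked for this by their mean raw count over both libraries of the group. Replicate lists thus shared 1 ranking, so the smaller number cannot be credited to list length alone.

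Signal at these regions lay between that of their neighbours in both conditions. Signal is given as counts per 1000000 reads over all regions after scaling (CPM), per kb of the widest peak. The median over the 1293 regions was 32.3 to 32.9 CPM per kb in the 4 treated libraries and 25 to 26.1 in the 4 untreated libraries. Treated medians hardly moved with the number of untreated calls. In treated libraries they were 31.1 to 32.0 for 1 call, 32.1 to 32.5 for 2 calls and 33.2 to 34.5 for 3 calls. In untreated libraries they were 19.9 to 21.0 for 1 call, 23.6 to 26.0 for 2 calls and 29.5 to 30.3 for 3 calls. Just outside the rule, regions with no untreated call had 28.2 to 29.3 in treated and 15.2 to 16.3 in untreated libraries. Regions with a peak in all 8 lists had 48.2 to 50.0 in treated and 57.7 to 60.0 in untreated libraries. At 1 to 3 calls, treated and untreated medians did not overlap in any class, while the order of the conditions was the opposite at regions of all 8 lists.

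**Figure D1:**
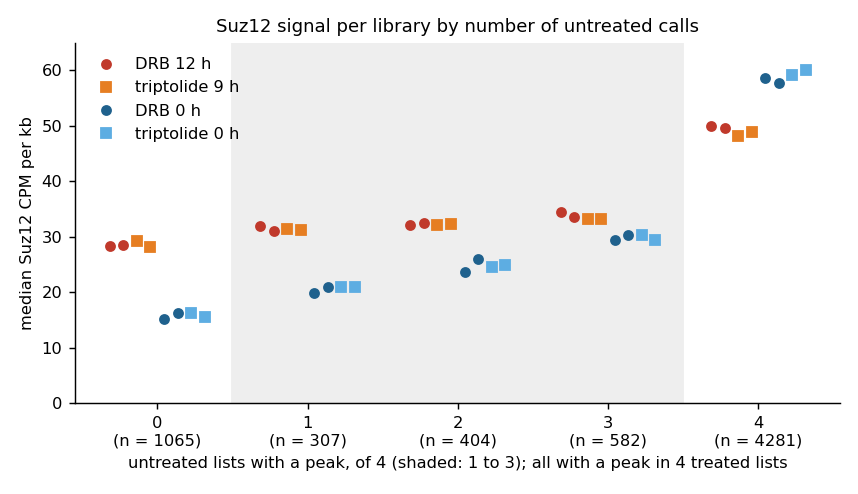
Median Suz12 CPM per kb of the widest peak (y axis) in each of 8 libraries, for regions called in each of the 4 treated lists and in 0 to 4 untreated lists (x axis, number of regions in brackets). Each point is 1 library, and in the shaded classes treated medians lie at 31.1 to 34.5 while untreated medians lie at 19.9 to 30.3.

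As a share of all reads counted over regions, the 1293 regions held 7.96% and 8.18% in the DRB 12 h libraries and 8.2% and 8.09% in the triptolide 9 h libraries. They held 4.96% and 5.38% at DRB 0 h and 5.19% and 4.97% at triptolide 0 h. All 4 treated shares lay above all 4 untreated shares. The median region had 120 to 391 reads in a treated library and 46 to 169 in an untreated one, with the fewest in DRB 0 h index ATCACG, the shallowest library at 1323926 reads over all regions.

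The size of the change followed the number of untreated calls. Those calls came from the same libraries, so this order is built into the classes and is a description. The median log2 change, treated minus untreated and averaged over both drugs, was 0.33 over the 1293 regions, against 0.05 over all regions. It was 0.60 with 1 untreated call, 0.33 with 2 and 0.15 with 3, beside 0.88 with none and −0.38 with 4. The middle 90% of the 1293 regions ran from −0.47 to 1.20. For DRB alone the median was 0.34 and for triptolide alone 0.35.

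**Figure D2:**
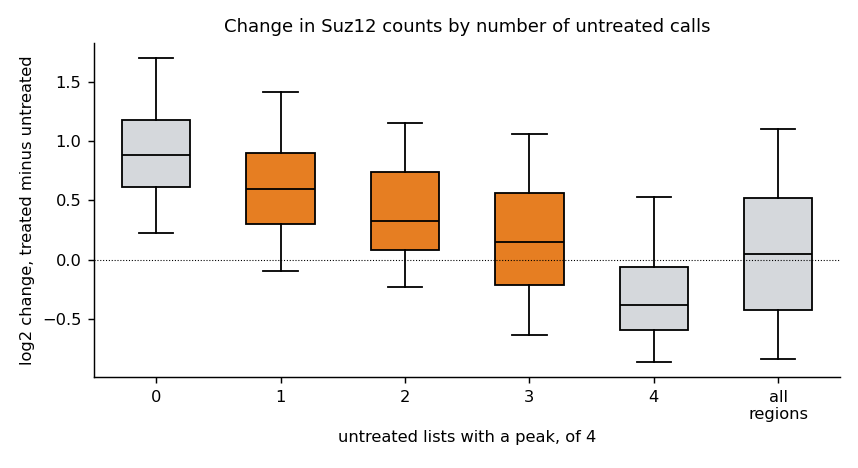
Log2 change in Suz12 counts, treated minus untreated and averaged over both drugs (y axis), by number of untreated lists with a peak (x axis), with all 11943 regions at the right. Boxes span the quartiles with the median as a line, whiskers span the 5th to 95th percentile, and the orange boxes hold the 1293 regions, with medians of 0.60, 0.33 and 0.15.

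At an adjusted p under 0.05 in edgeR, 623 of the 1293 regions were higher and 90 lower in treated cells. Over all regions 28% were higher and 28.9% lower, and since peak calls in the same libraries chose the regions, nothing is read from the difference. Of the 90 lower regions, 84 had 3 untreated calls, 6 had 2 and 0 had 1. In 538 regions every treated library lay above every untreated library, and in 60 every one lay below, against 24.4% and 25.2% of all regions. For DRB alone 457 were higher and 36 lower, beside 18.1% and 19.2% of all regions. For triptolide alone 485 were higher and 50 lower, beside 19.3% and 21.9%. The lower count rests on the scaling and on single libraries. When libraries were scaled on the regions of all 8 lists, the median of all regions moved to 0.39, that of the 1293 regions to 0.67, and 920 were higher and 6 lower, beside 47.4% and 11.2% of all regions. With the sum of all counts 791 were higher and 30 lower. For that setting and with a library left out, the shares over all regions are not given here. Those counts are therefore not read as particular to the 1293. Without DRB 0 h index TGACCA 37 were lower, and without triptolide 9 h replicate 2 54 were.

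Whether the pattern of calls carries over to libraries it was not read from was examined with the lists of 1 drug and the counts of the other, a comparison added after the data were seen. Regions with a peak in both triptolide 9 h lists and in 1 of the 2 triptolide 0 h lists numbered 899, of which 868 were among the 1293. In DRB counts their median log2 change was 0.38, with 330 (36.7%) higher and 11 (1.22%) lower. The same over all regions was 18.1% higher and 19.2% lower. With the drugs exchanged, 1110 regions had a peak in both DRB 12 h lists and 1 of 2 DRB 0 h lists, of which 777 were among the 1293. In triptolide counts their median was 0.07, with 276 (24.9%) higher and 123 (11.1%) lower, beside 19.3% and 21.9% of all regions. By the triptolide lists, 63.5% were higher in DRB counts with 0 untreated calls, and 40.7% were lower with 2. By the DRB lists, 46.5% were higher in triptolide counts with 0 untreated calls, and 45.6% were lower with 2.

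The counts at regions with 1 of 2 untreated calls depend on the scaling and on single libraries. Shares over all regions under these alternatives are not given here. Lower calls in the triptolide counts numbered 72 with DESeq2, 29 with the sum of all counts and 7 with scaling on the regions of all 8 lists. In the DRB counts they numbered 17 with DESeq2 size factors, 5 with the sum of all counts and 1 with scaling on the regions of all 8 lists. The difference between the exchanged comparisons was not tested. In the triptolide counts, higher calls numbered 174 without triptolide 0 h replicate 1, 182 without triptolide 9 h replicate 1 and 171 without triptolide 9 h replicate 2. Lower calls there numbered 28, 29 and 19 without the same libraries in turn, and 67 without triptolide 0 h replicate 2. In the DRB counts, 190 were higher without DRB 0 h index TGACCA, 6 were lower without DRB 0 h index ATCACG and 44 were lower without DRB 12 h index TGACCA.

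Of the regions at gene ends, the one with the largest change lay at chr7:83881859-83884901, over the start sites of Mesd, a chaperone of the Wnt coreceptors in the endoplasmic reticulum, and Tlnrd1, a talin-related actin-binding protein. It had 368 and 286 CPM at DRB 12 h, 294 and 311 at triptolide 9 h, 52.6 and 68.9 at DRB 0 h and 67.1 and 67.9 at triptolide 0 h. Treated and untreated libraries were far apart, and the log2 change was 2.27 ± 0.12 (SE). Per kb it was also the highest of the regions at gene ends with 2 untreated calls, at a mean of 105 CPM per kb in treated and 21.3 in untreated libraries.

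Fscn1, which encodes the actin-bundling protein fascin, lay in a region at chr5:142959909-142962830. It had 252 and 192 CPM at DRB 12 h, 167 and 187 at triptolide 9 h, 44.4 and 58.1 at DRB 0 h and 53.6 and 58.1 at triptolide 0 h, a log2 change of 1.86 ± 0.12. Tsc22d1, a leucine zipper regulator of transcription, lay at chr14:76413770-76418275 with 192 and 197 CPM at DRB 12 h, 203 and 209 at triptolide 9 h, 55.9 and 55.1 at DRB 0 h and 57.6 and 59.2 at triptolide 0 h. Its change was 1.82 under each drug, and its replicates were among the closest of the regions named here. Anp32a, an acidic nuclear phosphoprotein, had a change of 1.80 ± 0.12 at chr9:62340194-62345627. Ckap4, a membrane protein of the endoplasmic reticulum, had 188 and 137 CPM at DRB 12 h, 114 and 150 at triptolide 9 h, 49.3 and 36.9 at DRB 0 h and 39.3 and 54.1 at triptolide 0 h at chr10:84532114-84534717, a change of 1.73 ± 0.16. In all 5 regions the lowest treated library lay above the highest untreated one. For Tsc22d1, Anp32a and Ckap4 the only untreated call was in triptolide replicate 2.

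The 5 regions at gene ends with the most negative change all had 3 untreated calls, in both triptolide lists and in DRB replicate 2. Nipal4, a magnesium transporter gene of the skin barrier, had 21.2 and 24.7 CPM at DRB 12 h, 25.8 and 22.7 at triptolide 9 h, 27.9 and 41.6 at DRB 0 h and 59.1 and 43.3 at triptolide 0 h, at chr11:46165747-46166904. Its log2 change was −0.86 ± 0.16. Sdc4, a heparan sulfate proteoglycan of the cell surface, had 32.4 and 43.7 CPM at DRB 12 h, 42.9 and 40.0 at triptolide 9 h, 51.0 and 65.6 at DRB 0 h and 78.6 and 78.7 at triptolide 0 h, at chr2:164441857-164443868, a change of −0.77 ± 0.13. Groups did not overlap at either gene.

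Fbln5, an elastic fibre protein, had a change of −0.78 ± 0.20 at chr12:101818315-101819838, but there the groups overlapped: the treated libraries had 17.6, 34.4, 38.1 and 33.3 CPM and the lowest untreated library 33.7. Sycp1, of the synaptonemal complex of meiosis, had −0.75 ± 0.19 at chr3:102935249-102936497. Gucy1a1, a subunit of soluble guanylate cyclase, had −0.73 ± 0.13 at chr3:82144671-82146056. Under scaling on the regions of all 8 lists these 5 changes were smaller but stayed negative, from −0.52 for Nipal4 to −0.39 for Gucy1a1.

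**Figure D3:**
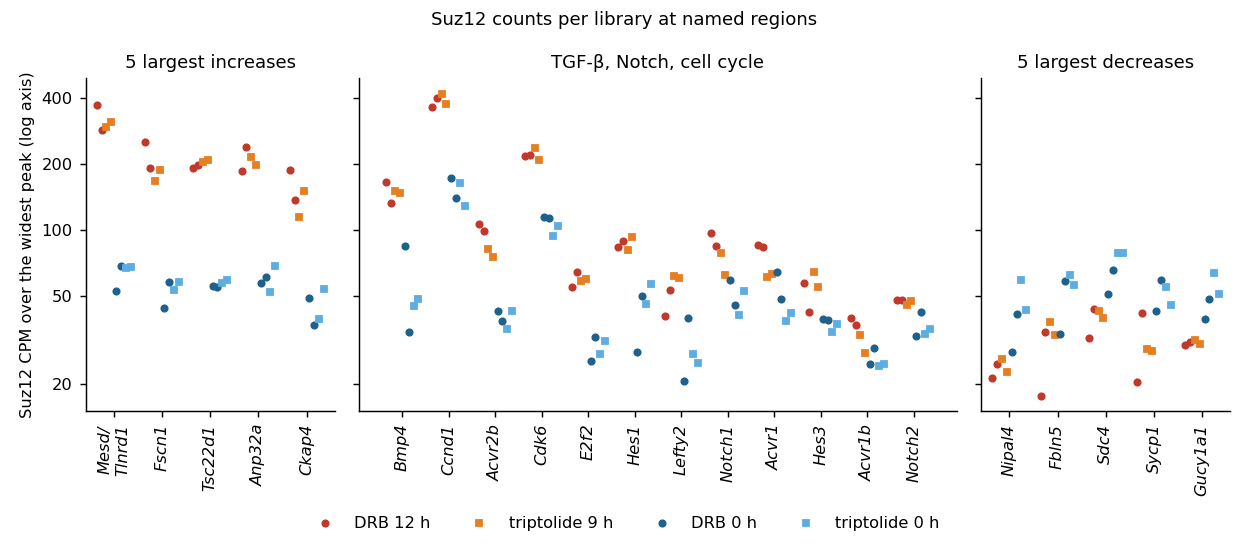
Suz12 CPM over the widest peak (y axis, log scale) at named regions (x axis), with each point 1 library. The left panel has the 5 regions at gene ends with the largest increase, the middle panel regions at genes of the TGF-β, Notch and cell cycle lists, and the right panel the 5 with the largest decrease; at Mesd/Tlnrd1 treated libraries lie at 286 to 368 and untreated libraries at 52.6 to 68.9.

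Regions at gene ends were also ranked by signal within each number of untreated calls. Among those with 1 untreated call, the highest signal per kb lay at Jund, an AP-1 transcription factor gene. The region also lay within 1 kb of an end of Iqcn. It had 63.4 CPM per kb in treated and 20.0 in untreated libraries, and a log2 change of 1.65 ± 0.14. Ckap4 came next, then Naif1/Slc25a25, Il4i1/Il4i1b/Tbc1d17, Arc, Plxdc1, Slc7a1 and Nt5dc2, with changes of 1.24 to 1.73. Arc, an activity-induced gene of neurons, had 53.8 CPM per kb in treated and 19.5 in untreated libraries. Slc7a1, a transporter of cationic amino acids, had 50.2 in treated and 19.5 in untreated libraries. The treated means of these 8 regions spanned only 49.8 to 63.4 CPM per kb.

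With 2 untreated calls, Mesd/Tlnrd1 was followed by Dnase2a/Mast1 at 81.6 CPM per kb in treated and 24.6 in untreated libraries. Fscn1, Scx, Phf13, Tsc22d2, Zfp318 and Zcchc14 completed the 8 highest at gene ends, with treated means of 57.4 to 68.3. Scx encodes scleraxis, a bHLH factor of tendon, and had a change of 1.60 ± 0.13. Phf13, a PHD finger protein that binds methylated lysine 4 of histone H3, had 1.41 ± 0.11.

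At gene ends with 3 untreated calls, Rab11fip3, an effector of the recycling GTPase Rab11, was highest at 77.0 CPM per kb in treated and 27.9 in untreated libraries. Gnas, the gene for the stimulatory G protein alpha subunit, had 70.3 in treated and 26.3 in untreated libraries. Creld1/Il17rc, Tcf15, Trim44, Ankrd9, Ski and Slc2a3 followed at 62.2 to 69.0 in treated libraries. Tcf15, a bHLH factor of the paraxial mesoderm, had the largest change of these 8 at 1.71 ± 0.14, and Trim44 the smallest at 0.85 ± 0.13. Ski, a corepressor of SMAD proteins, had 1.51 ± 0.11. In each of these 8 regions every treated library lay above every untreated one.

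Gene lists are read here beside all 21631 protein-coding genes, of which 1004 (4.64%) had a region of this kind at an end. Higher and lower calls within a list describe regions that peak calls chose, and stand beside 48.2% higher and 6.96% lower among all 1293. None of 39 Hox genes had a region of this kind at an end, and all 39 had a region of all 8 lists. Of 40 lineage transcription factor genes 1 (2.5%) had one, and 38 had a region of all 8 lists. That gene was Tbx3, which is also among the 38 and belongs to the list of 32 pluripotency genes as well. The Tbx3 region of this kind had a log2 change of 0.00 ± 0.10, with 29.1 CPM per kb in treated and 29.4 in untreated libraries.

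Of the signalling lists, that of the TGF-β, Nodal and BMP pathway had the largest share. Of its 38 genes, 8 (21.1%) had a region of this kind at an end, 16 had a region of all 8 lists and 2 had one with no untreated call. In 7 of the 8 counts were higher in treated cells and in 1 they were lower, with a median change of 0.92. Among ligands, Bmp4 had 166 and 133 CPM at DRB 12 h, 151 and 147 at triptolide 9 h, 84.6 and 34.4 at DRB 0 h and 45.0 and 48.7 at triptolide 0 h, at chr14:46387139-46390969. Its change was 1.57 ± 0.20, and the untreated replicates of DRB differed more from each other than those of triptolide did. Tgfb3, another ligand, was the lower one, with a change of −0.49 ± 0.13. Lefty2, a secreted antagonist of Nodal, had 40.8 and 53.6 CPM at DRB 12 h, 62.0 and 60.2 at triptolide 9 h, 20.5 and 40.0 at DRB 0 h and 27.2 and 24.9 at triptolide 0 h, a change of 0.89 ± 0.17.

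Among the receptors of that pathway, the type II receptor gene Acvr2b had 106 and 98.9 CPM at DRB 12 h, 82.3 and 75.1 at triptolide 9 h, 42.7 and 38.6 at DRB 0 h and 35.3 and 43.0 at triptolide 0 h. Its change was 1.18 ± 0.12, and that of Bmpr2, the type II receptor for BMP, was 0.95 ± 0.14. The type I receptor genes moved less, with 0.63 ± 0.12 at Acvr1/Upp2 and 0.40 ± 0.14 at Acvr1b, and at both the groups overlapped. Id1, a BMP target that blocks bHLH factors, had 1.11 ± 0.14. Tgfb3, Bmpr2 and Id1 were named after their values were seen.

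In the Notch list, 4 of 25 genes (16%) had such a region, and counts were higher in treated cells at all 4. Hes1, the main transcriptional effector, had 84.0 and 89.3 CPM at DRB 12 h, 80.8 and 92.8 at triptolide 9 h, 27.9 and 49.9 at DRB 0 h and 45.9 and 57.0 at triptolide 0 h, a log2 change of 0.91 ± 0.15. The receptor genes Notch1 and Notch2 had 0.71 ± 0.14 and 0.37 ± 0.13, and Hes3 had 0.53 ± 0.14. In each of the 4, every treated library lay above every untreated one.

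In the Wnt list, 4 of 44 genes (9.09%) had such a region. The coreceptor gene Lrp5 had 1.09 ± 0.14 and the transcription factor gene Tcf7l2 1.30 ± 0.13. Of the secreted modulators, Sfrp4 had 0.46 ± 0.17 and Dkk3 was lower in treated cells at −0.69 ± 0.14. The FGF list held Fgfr1, a receptor gene, at 0.72 ± 0.11 and Spry1, a feedback inhibitor, at 1.00 ± 0.13, which are 8% of its 25 genes. No Hedgehog gene of 14 had a region of this kind.

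Of 21 cell cycle genes, 3 (14.3%) had such a region, and counts were higher in treated cells at all 3. Ccnd1, for cyclin D1, lay under the widest peak of all 1293 regions, at 6413 bp, at chr7:144937343-144943878. It had 364 and 399 CPM at DRB 12 h, 417 and 373 at triptolide 9 h, 173 and 140 at DRB 0 h and 164 and 129 at triptolide 0 h, a change of 1.37 ± 0.11. Cdk6, the kinase partner of cyclin D, had 1.06 ± 0.09 and E2f2, a transcription factor downstream of it, 1.01 ± 0.13. At each of the 3 genes the lowest treated library exceeded the highest untreated one, as in 538 of the 1293 regions.

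Other lists added single genes. Of 31 Polycomb genes, Kdm2b had a region, with 112 and 123 CPM at DRB 12 h, 113 and 89.5 at triptolide 9 h, 54.2 and 46.6 at DRB 0 h and 49.3 and 45.8 at triptolide 0 h. Kdm2b binds unmethylated CpG islands and brings a PRC1 complex to them, and its log2 change was 1.17 ± 0.12. The pluripotency list added Dnmt3b, a de novo DNA methyltransferase, at 0.64 ± 0.15, and the immediate early list, beside Jund, Fosb at 0.34 ± 0.12. Rarg, a retinoic acid receptor gene, had 0.69 ± 0.15, whereas Crabp2, for a retinoic acid binding protein, had 0.05 ± 0.11. Of 55 axon guidance genes, Efna2 and Epha4 each had 0.39, and Sema3e had 0.12 ± 0.19.

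Symbol families were counted after their values were seen. Solute carrier genes stood at 23 of the regions, 12 of them (52.2%) higher and 1 lower in treated cells, with a median change of 0.70. Genes with the symbol start Zfp stood at 24, of which 13 (54.2%) were higher and 0 lower, with a median of 0.52. Both shares of higher calls are near the 48.2% of all 1293 regions. Protocadherin genes stood at 6, of which 0 were higher and 3 lower, with a median of −0.40. Scaling on the regions of all 8 lists left 3 of these 6 with a negative change.

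Most of the regions touched genes. Of the 1293, 887 (68.6%) lay within 1 kb of an annotated end of a protein-coding gene, compared with 64.1% of all regions and 71.3% of those with no untreated call, and also 71.3% of those in all 8 lists. They stood at 1004 of 21631 genes, and 58 of these genes also had a region of all 8 lists at an end. A start site of the RefSeq table lay inside 736 regions (56.9%). The peak centre lay a median of 251 bp downstream of the start site, and it was downstream in 603 of the 736. Regions were narrower than those of all 8 lists, with widest peaks of 1517 bp against 2314 bp at the median, and close to the 1451 bp of regions with no untreated call. Within 10 kb of a region of all 8 lists lay 13.0% of them, against 9.01% of regions with no untreated call.

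The regions higher and lower in treated cells differed in position, given here as shares without a test. Of the 623 higher regions 79.0% were at a gene end, of the 90 lower ones 47.8%, and of the 580 with neither call 60.7%. A start site lay in 64.4% of the higher, 37.8% of the lower and 51.9% of those with neither call. Lower regions were more often within 10 kb of a region of all 8 lists, at 24.4% against 8.67% of the higher ones. The widest peak was a median 1699 bp at higher regions, 1303 bp at lower ones and 1317 bp at those with neither call. Of the 90 lower regions 84 had 3 untreated calls, and scaling on the regions of all 8 lists left 6 lower. The part of peak width and of the number of calls in these shares was not tested.

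Away from gene ends, 406 regions had a median log2 change of 0.17, against 0.43 for the 887 at gene ends. Among those with the highest treated signal per kb were regions in the bodies of Fcgr3, Sh2b3, Keap1 and Nr2f6. The Fcgr3 region, at chr1:171064422-171064779, is the narrowest of all at 358 bp. It had 42.4 and 17.1 CPM at DRB 12 h, 21.2 and 23.1 at triptolide 9 h, 48.5 and 21.2 at DRB 0 h and 20.9 and 24.9 at triptolide 0 h, so that libraries of index ATCACG were the high ones in both DRB groups. The other 3 had changes of 0.99 to 1.51. Keap1, the adaptor that holds the stress factor Nrf2 in check, had a change of 1.51 ± 0.13 at chr9:21233126-21234384.

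The promoters in the regions were those of CpG islands. The 924 RefSeq promoters with a start site inside had a median of 25 CpG, a GC content of 67.0% and an observed over expected CpG ratio of 0.789. The promoters in all 11943 regions were close to this, with medians of 24 CpG, 65.3% GC and a ratio of 0.766, whereas all 32851 promoters of the table had 7 CpG, 52.7% GC and a ratio of 0.384. The ratio was 0.807 at regions with no untreated call and 0.725 at regions of all 8 lists. It was 0.855 at the higher and 0.682 at the lower of the 1293 regions, and 0.714 at those with neither call.

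Short motifs were counted on both strands of the same 300 bases. GGGCGG, the GC box, was in 77.3% of the promoters in the regions, 71.9% of those in all Suz12 regions and 35.7% of all promoters. TATAAA was in 5.19% of those in the regions, 5.68% of those in all Suz12 regions and 13.6% of all. CCAAT was in 30.1%, 30.6% and 37.4% in the same order. CACGTG, the E-box, was in 10.7%, 9.68% and 7.15%, and CCGGAAG, the ETS motif, in 9.63%, 9.64% and 8.86%. The NRF1 palindrome was in 0.758%, 1.36% and 0.971%, and the Kaiso palindrome in 0.216%, 0.453% and 0.466%. The shares were thus nearer to those of all Suz12 regions than to those of all promoters, apart from the rare NRF1 palindrome. Apart from TATAAA and CCAAT, these motifs hold a CpG, so that their counts move with CpG content.

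The change grew with the CpG ratio. The 736 regions with a start site were put in 4 equal bins of 184 by the ratio of their promoter. Where a region held several promoters, the highest ratio among them was taken. From the lowest to the highest bin the median log2 change was 0.13, 0.34, 0.50 and 0.61. Higher calls numbered 57, 92, 115 and 137 and lower calls 12, 15, 6 and 1. The difference between the highest and the lowest bin was 0.48, and in the treated libraries taken singly it was 0.59 and 0.33 for DRB 12 h and 0.34 and 0.48 for triptolide 9 h. Over the 736 regions Spearman's rho was 0.33, a description across regions that share 8 libraries. It was 0.348, 0.37 and 0.296 within the regions of 1, 2 and 3 untreated calls. Bins with the same bounds had medians of 0.74 to 1.01 at regions with no untreated call and −0.45 to −0.23 at those of all 8 lists, in the same order.

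Other quantities moved with the bins. GC content, again the highest among a region's promoters, was 59.7%, 66.3%, 70.2% and 75.5% from the lowest to the highest bin. Peak width was 1371, 1521, 1491 and 1733 bp. Peak width had a rho of 0.499 with the change. The CpG ratio also went with differences between libraries of the 2 drugs. The median of DRB 12 h minus triptolide 9 h was −0.06, 0.06, 0.05 and 0.18 from the lowest to the highest bin. Over the 736 regions the CpG ratio had a rho of 0.345 with this difference, beside 0.33 with the treated minus untreated change. For DRB 0 h minus triptolide 0 h the medians were −0.02, 0.06, 0.07 and 0.12, with a rho of 0.228. The part of GC content and peak width in the treated minus untreated change was not tested.

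**Figure D4:**
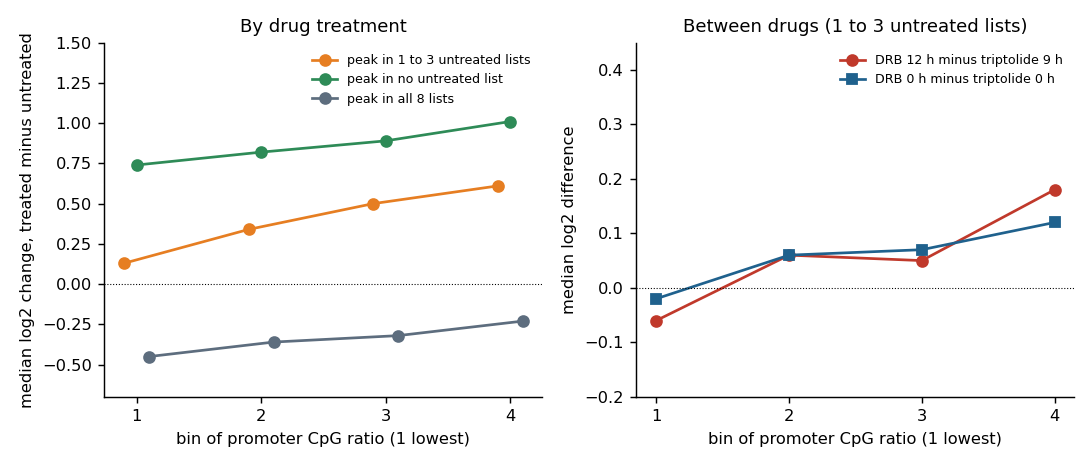
Median log2 values (y axes) by bin of promoter CpG ratio (x axes, 1 lowest), with bin bounds set on the 736 regions with a start site. Left, treated minus untreated for these regions, for regions with no untreated call and for regions of all 8 lists, all increasing with the ratio; right, differences between libraries of the 2 drugs, which are highest in the highest bin, at 0.18 and 0.12, although DRB 12 h minus triptolide 9 h has 0.06 in bin 2 and 0.05 in bin 3.

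The counts of the 2 drugs were also set against each other, in edgeR over all 11943 regions with Benjamini-Hochberg adjustment. The rule asks for a peak under both drugs and so leaves out regions called under 1 drug only, which limits how many of the 1293 can differ. How many differ is therefore a description and does not show that the drugs act alike. Between DRB 12 h and triptolide 9 h, 2 of the 1293 regions passed an adjusted p of 0.05, both lower in DRB, beside 0.126% of all regions. In 94.6% of the 1293 the fitted difference was within 0.5 on the log2 scale, with a median SE of 0.19. An unadjusted edgeR p was under 0.05 at 122 of the 1293, beside 956 of all 11943 regions. The number depends on the test and on 1 library in particular: DESeq2 called 6, and without DRB 12 h index TGACCA, the deepest library, edgeR called 75. It called 5 without DRB 12 h index ATCACG and 1 without either triptolide 9 h library. Under these alternatives the shares over all regions are not given here, so the counts are not read as particular to the 1293. Chi-square per degree of freedom between replicates over the 1293 regions was 6.79 for DRB 12 h, against 2.55 to 2.98 in the other groups. It grows with read depth, so it does not show which replicates differed most.

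Between DRB 0 h and triptolide 0 h, edgeR called 0 of the 1293 regions, as of all regions (0%). Its unadjusted p was under 0.05 at 47 of the 1293, beside 285 of all 11943 regions. DESeq2 also called 0, with 23 at an unadjusted p under 0.05. The difference of the 2 drugs' changes passed at 1 region in edgeR, beside 0.0167% of all regions. There 28 of the 1293 had an unadjusted p under 0.05, beside 193 of all 11943 regions.

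Of the regions lower in DRB, that at chr7:12970433-12971940 lies in the body of the zinc finger gene Zfp324, and was named after its values were seen. It had 33.6 and 45.6 CPM at DRB 12 h, 99.2 and 95.3 at triptolide 9 h, 32.9 and 31.5 at DRB 0 h and 31.3 and 33.9 at triptolide 0 h. DRB 12 h minus triptolide 9 h was −1.26 ± 0.17 (edgeR adjusted p = 0.0141), and the difference was about as large, but no longer past the threshold, without triptolide 9 h replicate 1 (−1.25, edgeR adjusted p = 0.232) or replicate 2 (−1.32, edgeR adjusted p = 0.173). The difference of changes did not pass there, at −1.24 ± 0.27 (edgeR adjusted p = 0.959), but passed without DRB 12 h index TGACCA at −1.56 (edgeR adjusted p = 0.047). Over the other alternatives its adjusted p was 0.487 or more.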

How the data were processed

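Per the submitters' processing notes, reads were aligned with Bowtie and peaks called with MACS on mm10 (GRCm38). How reads were counted is not given in the sources used here. The authors deposited 1 peak list per Suz12 library, with raw counts over its peaks in 13 columns per the file headers. Of these, 8 columns were used. The other 5 were not, since their names fit no single sample or sample group. DRB count columns name an index, with a 3 in the names of index TGACCA, and triptolide columns a replicate, so DRB counts are not tied to a list. No lane number named in the headers of the used columns holds both treated and untreated libraries, so lane number and treatment cannot be told apart. These headers name no run, so libraries with the same lane number need not share a lane.

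Overlapping peaks were merged, starts were read as 0-based and printed 1-based, and a region's counts were those over its widest peak. Counts were tested with edgeR 4.0.16 in R 4.3.3 (quasi-likelihood, TMM scaling, 4 groups, no filter, two-sided, Benjamini-Hochberg over 11943 regions), with DESeq2 1.42.0 as an alternative. No library totals were used, so changes are relative. Errors are SE of the fit. The regions and gene lists were chosen with earlier results of these data known.

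Genes named in the text follow a rule, without predicted genes (symbols starting with Gm and a number, or ending in Rik). Among regions at gene ends it takes the 8 highest in treated CPM per kb for each number of untreated calls, the 5 largest and 5 smallest changes, those differing between drugs, up to 4 of each gene list, and 5 regions away from gene ends. A few regions taken by it are not reported here. Gene ends came from RefSeq genes and start sites from the RefSeq promoter table, both of GRCm38.p6, which covers part of the start sites.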

Additional observations from a re-analysis of the deposited data

How the results depend on the processing

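Leaving out 1 library at a time with the others kept, the lone library of a group was assumed to vary like the rest. Between DRB 12 h and triptolide 9 h the count of regions ran from 1 to 75, for the difference of changes from 0 to 2, and for the untreated libraries it stayed at 0. DESeq2 called 6 between DRB 12 h and triptolide 9 h, and scaling on the regions of all 8 lists called 0 for the difference of changes. The number lower in treated cells was 37 to 133 with a library left out, 30 with the sum of all counts and 6 with scaling on the regions of all 8 lists. The number higher was 546 to 654 with a library left out. The median change was 0.32 to 0.36 with a library left out, 0.31 with DESeq2 size factors and with DESeq2, 0.53 with the sum of all counts and 0.67 with scaling on the regions of all 8 lists.

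In triptolide libraries alone with the replicate number as a block, 732 were higher and 117 lower, against 622 and 79 without the number and 485 and 50 in the fit of 4 groups. Over all regions, the deviations of replicate 1 from the group mean at triptolide 0 h and 9 h correlated at 0.394. There are only 2 pairs of libraries, too few to take the numbers as a pairing. In DRB libraries alone, the index shared by column names of both times as a block gave 562 higher and 79 lower, against 360 and 12 without the index and 457 and 36 in the fit of 4 groups. Over all regions, the deviations of index ATCACG from the group mean at DRB 0 h and 12 h correlated at 0.375, again with only 2 pairs of libraries.

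For the lists of 1 drug in the counts of the other, with a library left out, the DRB lists gave 171 to 340 higher and 19 to 170 lower, and the triptolide lists 190 to 347 higher and 6 to 44 lower. DRB lists gave 455 higher and 7 lower with scaling on the regions of all 8 lists, 29 lower with the sum of all counts and 72 lower with DESeq2. Triptolide lists gave 496 higher and 1 lower with scaling on the regions of all 8 lists, 5 lower with the sum of all counts and 17 lower with DESeq2 size factors. The difference between the outer CpG bins was 0.41 to 0.53 with a library left out.

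The number of regions was 722 when peaks narrower than the median of 1357 bp were dropped and 397 with lists of equal length. It was 971 to 1694 with a list left out. The share at a gene end was 72.3% with wider peaks, 63.4% with at least 3 of 4 treated lists, 64.7% with a window of 0.5 kb, 75.4% with one of 2.5 kb, and 64.8% to 70.5% with a list left out. The share was not recomputed with lists of equal length, and no named region past the threshold changed sign. Of the values of named regions under the alternatives, 693 stayed within 1 SE or on the same side of the threshold, 149 moved by more than 1 SE, 2 lost a call and 1 gained one. The lists of 1 drug in the other's counts, the CpG bins, the triptolide fit without the number and both DRB fits were chosen after seeing the data.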
